A study of Mus musculus with 258 samples.

Results

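Rbpj, Hes and Hey factors are the transcription factors through which Notch signalling reaches its target genes. The 7 genes followed here are Rbpj, Hes1, Hes5, Hes6, Hey1, Hey2 and Heyl, chosen by their symbols from 40824 genes listed in the read count tables. All 7 were found, and 5 of them passed the filter on low counts in the bulk libraries. When a Notch receptor is activated by a ligand on a neighbouring cell, its intracellular part enters the nucleus and binds Rbpj, a DNA-binding protein that otherwise recruits corepressors. The Hes and Hey genes encode repressors of the basic helix-loop-helix class, and several of them are switched on by Rbpj with active Notch. In the embryonic pancreas Hes1 is known to repress Neurog3, the gene of the factor Ngn3 that commits progenitors to the endocrine fate, and Hes6 is known as a family member that opposes Hes1 and acts with proneural factors.

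The study followed the commitment of mouse pancreatic cells to the endocrine fate and the part of the histone demethylase Jmjd3, encoded by Kdm6b, in it. For bulk RNA-seq, E13.5 dorsal pancreas with an Ngn3-GFP reporter was sorted into a low and a high gate (called Ngn3-low and Ngn3-high), and Ins1-RFP positive cells were sorted at E17.5, giving 2 libraries per group. RNA was also sequenced from 221 single E13.5 dorsal pancreas cells: 49 WT Ngn3-low, 59 WT Ngn3-high, 69 deleted Ngn3-low and 44 deleted Ngn3-high cells. Deleted cells carried Pdx1-Cre, a recombinase expressed from a promoter of pancreatic progenitors, and Jmjd3 fl/fl. The labels name no Cre for WT cells, so Cre and the deletion cannot be told apart. They also name no animal: bulk p-values measure the spread between these libraries only, and each single-cell group counts as 1 sample with no test. Titles of single cells carry a number from 1 to 6 whose meaning the labels do not give; it is called the title number here.

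Bulk libraries held 11957415 to 17760214 reads in genes and single cells 380478 to 1949839. Libraries of a pair differed by more than sampling noise in every bulk group. Pancreatic epithelium markers summed to between 2703 and 3336 CPM, the reads of a gene scaled to the reads in all genes of its library, in each bulk library. Other cell types were also present in the bulk sorts. The 11 macrophage markers summed to 3097 and 2586 CPM in the Ngn3-low libraries, to 18.9 and 8.11 CPM among Ngn3-high ones, and to 80.3 and 140 CPM among Ins1-RFP positive ones. The 11 endothelial markers summed to 493 and 544, 15.7 and 10.8, and 61.8 and 77.5 CPM in the same order. Ins1-RFP positive library 2 stood apart, with acinar markers at 20327 CPM against 1193 CPM in library 1 and mesenchymal markers at 897 against 362 CPM. In single cells the macrophage list summed to 4.04 to 10.5 CPM per group. The deletion was checked first: Kdm6b stood at 131 CPM in WT and 55.5 CPM in deleted Ngn3-low cells, and at 265 CPM in WT and 107 CPM in deleted Ngn3-high cells. Gene counts include reads outside the floxed part, so these values do not measure how many cells were recombined.

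RefSeq promoter windows of build GRCm38.p6 run from 250 bases before an annotated start to 50 bases after it. Of the 7 members 4 matched, with 6 windows: Rbpj, Hes5, Hes6 and Hey2, and not Hes1, Hey1 and Heyl. Of these, 5 windows are shown to compare Hes6, abundant in Ngn3-high cells, with Hes5 and Hey2, which had few reads, and with Rbpj itself. The motif TGGGAA, the core of the Rbpj binding sequence, was searched on both strands, as was the E box CANNTG, which proneural and Hes factors can bind. In the first 3 sequences, all 5′ to 3′ on the gene's strand, capitals mark TGGGAA or its reverse complement.
Rbpj, chr5:53590096-53590395, plus strand: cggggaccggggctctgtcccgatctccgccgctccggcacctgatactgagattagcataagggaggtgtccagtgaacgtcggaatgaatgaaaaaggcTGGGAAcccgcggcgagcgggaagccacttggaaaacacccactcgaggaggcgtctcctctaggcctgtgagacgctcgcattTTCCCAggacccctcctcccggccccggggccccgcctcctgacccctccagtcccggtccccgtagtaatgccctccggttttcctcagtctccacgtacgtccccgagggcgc
Hes5, chr4:154960673-154960972, plus strand: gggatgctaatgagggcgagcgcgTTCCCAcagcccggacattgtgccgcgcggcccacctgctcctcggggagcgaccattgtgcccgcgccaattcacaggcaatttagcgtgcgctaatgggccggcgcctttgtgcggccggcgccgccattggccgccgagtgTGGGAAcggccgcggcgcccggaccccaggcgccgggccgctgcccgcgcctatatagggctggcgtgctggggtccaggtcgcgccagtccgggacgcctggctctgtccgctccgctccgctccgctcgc
Hey2, chr10:30842734-30843033, minus strand: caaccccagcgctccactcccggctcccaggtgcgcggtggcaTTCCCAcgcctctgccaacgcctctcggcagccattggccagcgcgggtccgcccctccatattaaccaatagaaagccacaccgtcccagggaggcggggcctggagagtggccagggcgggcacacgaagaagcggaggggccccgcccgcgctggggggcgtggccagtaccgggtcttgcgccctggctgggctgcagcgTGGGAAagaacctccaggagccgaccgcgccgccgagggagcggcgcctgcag
In the windows of the 2 annotated Hes6 starts, capitals mark CANNTG.
Hes6 upstream start, chr1:91413989-91414288, minus strand: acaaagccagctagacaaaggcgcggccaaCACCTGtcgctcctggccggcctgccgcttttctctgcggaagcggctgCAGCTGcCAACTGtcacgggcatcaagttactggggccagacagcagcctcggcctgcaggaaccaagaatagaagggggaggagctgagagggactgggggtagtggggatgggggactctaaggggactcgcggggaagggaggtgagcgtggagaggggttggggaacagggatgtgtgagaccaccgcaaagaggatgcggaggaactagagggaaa
Hes6 downstream start, chr1:91413173-91413472, minus strand: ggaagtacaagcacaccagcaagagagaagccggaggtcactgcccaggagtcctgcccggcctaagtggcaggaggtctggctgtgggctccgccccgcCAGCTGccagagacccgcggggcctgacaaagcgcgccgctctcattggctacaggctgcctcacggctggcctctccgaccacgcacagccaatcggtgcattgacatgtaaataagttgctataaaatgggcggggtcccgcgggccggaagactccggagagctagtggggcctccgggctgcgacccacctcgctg
The Hes5, Hey2 and first Rbpj windows each held 2 copies of TGGGAA, where 3.79% of 32851 windows held 2 or more and 25.6% held at least 1. In Hes5 the copies began at positions -226 and -82 from the start, and in Hey2 at -207 and -3. Neither Hes6 window held TGGGAA (0 copies). The upstream Hes6 window held 3 E boxes, a number reached by 17.6% of windows, and the downstream one held 1, where 72.3% of windows held at least 1. E boxes, not marked there, also lay in the other windows shown: 2 in the first Rbpj window and 1 each in Hes5 and Hey2. The N box CACNAG and the class C site CACGNG were also searched and are not marked. The downstream Hes6 window held 2 N boxes, at -237 and 15, where 11.3% of windows held 2 or more. The upstream Hes6 window held 1 class C site, at -157, where 27.5% of windows held at least 1. The Rbpj, Hes5 and Hey2 windows held 0 of both motifs. These matches describe letters in a window and no binding was measured.

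Between the 2 Ngn3 gates of the bulk sort, the first step, single members moved in different directions. Hes1 and Heyl fell, Hes6 rose, and Rbpj and Hey1 did not pass the test. Of the 5 members tested with edgeR, 1 was called higher, where 27.7% of all 15684 genes were, and 2 were called lower, where 30.2% of all genes were. With 5 members tested, these counts do not set the members apart from all genes. From the high gate to Ins1-RFP positive cells, the second step, 0 members were called higher and 3 lower, against 26.1% and 24.9% of all genes. Between Ngn3-low and Ins1-RFP positive cells, 1 was called higher and 3 lower, against 30.4% and 35.5% of all genes. With no call higher in the second step, DESeq2 also gave 0. These comparisons share libraries and are not independent of each other. In bulk samples, fewer cells of a type and less RNA per cell cannot be told apart. Ins1-RFP positive cells also differ from both Ngn3 gates in embryonic day (E17.5 against E13.5) and in reporter, and their label names no dorsal pancreas. These differences cannot be told apart from the cell type.

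**Figure D1:**
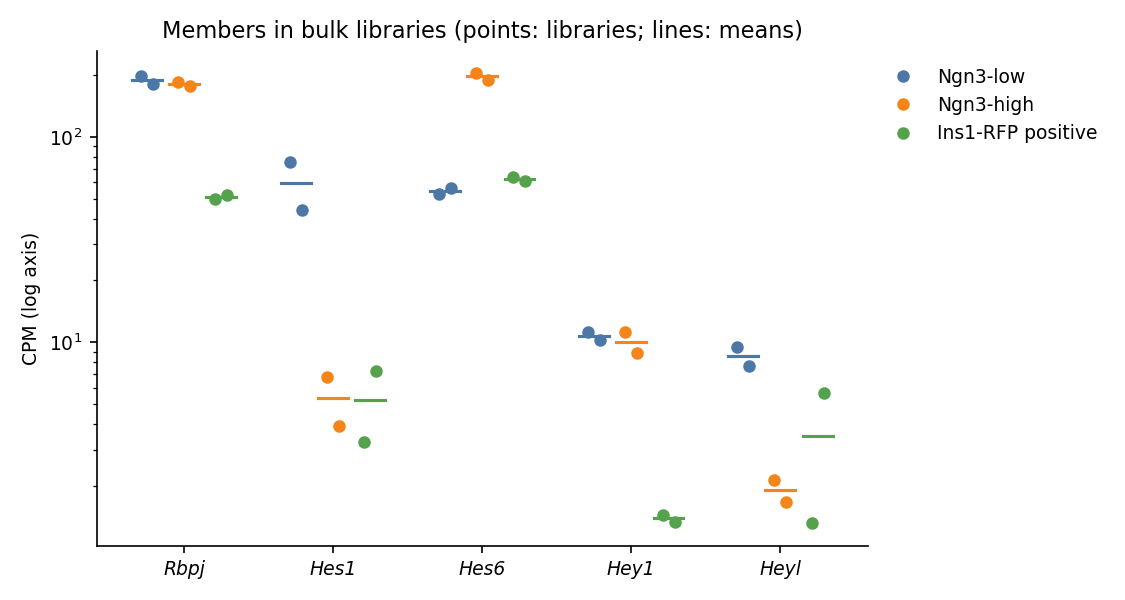
CPM on a log axis for 5 members in the 3 bulk groups; points are libraries (2 per group) and lines are means. Hes6 stands at 204 and 190 CPM in Ngn3-high libraries and below 64 CPM in the other groups, while Hes1 is above 43 CPM in Ngn3-low libraries only.

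Rbpj (chr5:53555779-53657445), the DNA-binding partner of Notch, did not pass the test in the first step and fell in Ins1-RFP positive cells. It stood at 198 and 181 CPM in the Ngn3-low libraries, 185 and 177 CPM in Ngn3-high and 49.995 and 52.3 CPM in Ins1-RFP positive. The E13.5 groups overlapped, and both E17.5 libraries lay far below them. Gene positions here and below are RefSeq's on GRCm38.p6. From Ngn3-high to Ins1-RFP positive cells Rbpj fell by 1.74 on the log2 scale (SE 0.108, edgeR adjusted p = 1.163e-05). From Ngn3-low to Ngn3-high cells the log2 difference was 0.02 (SE 0.104, edgeR adjusted p = 0.908), and its sign was negative with total-count scaling.

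Hes1 (chr16:30065357-30067796), the Notch-responsive repressor of Neurog3, was the member with the deepest fall. It stood at 75.1 and 43.8 CPM in the Ngn3-low libraries, 6.76 and 3.93 CPM in Ngn3-high and 3.27 and 7.23 CPM in Ins1-RFP positive. Both Ngn3-low libraries were above all others, although they differed from each other, and the other groups overlapped. Hes1 fell by 3.37 on the log2 scale into Ngn3-high cells (SE 0.418, edgeR adjusted p = 0.000184) and then showed a difference of 0.01 (SE 0.442, edgeR adjusted p = 0.985). Macrophage and endothelial markers were lower in the same direction in bulk. Their part in the bulk result was not tested. In single WT Ngn3-low cells the macrophage list summed to 10.5 CPM and the endothelial list to 45.1 CPM, most of it from Egfl7.

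Hes6 (chr1:91411483-91414038), the family member that opposes Hes1, peaked in Ngn3-high cells. It stood at 52.8 and 56.6 CPM in the Ngn3-low libraries, 204 and 190 CPM in Ngn3-high and 63.9 and 60.6 CPM in Ins1-RFP positive. The Ngn3-high libraries were above all 4 others with no overlap. Hes6 rose by 1.93 on the log2 scale (SE 0.105, edgeR adjusted p = 1.805e-06) and then fell by 1.58 (SE 0.104, edgeR adjusted p = 1.368e-05). Against Ngn3-low cells, Ins1-RFP positive cells were 0.36 higher on that scale (SE 0.104, edgeR adjusted p = 0.01527). That last call was lost with total-count scaling, at 0.19 (edgeR adjusted p = 0.125), and without either Ngn3-low library or Ins1-RFP positive library 1, at 0.31 to 0.38.

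Hey1 (chr3:8663359-8667038), a Notch-responsive repressor known from blood vessels, also fell in the second step alone of these steps. It stood at 11.3 and 10.3 CPM in the Ngn3-low libraries, 11.3 and 8.86 CPM in Ngn3-high and 1.44 and 1.34 CPM in Ins1-RFP positive. The E13.5 groups overlapped and the E17.5 libraries were lowest. Hey1 differed by -0.01 on the log2 scale in the first step (SE 0.220, edgeR adjusted p = 1), a sign that DESeq2 turned, and fell by 2.76 in the second (SE 0.260, edgeR adjusted p = 7.592e-05).

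Heyl (chr4:123233556-123249870), a relative known from mural cells of vessels, fell in the first step on fewer reads. It stood at 9.52 and 7.69 CPM in the Ngn3-low libraries, 2.14 and 1.67 CPM in Ngn3-high, and 1.32 and 5.67 CPM in Ins1-RFP positive. The Ngn3-low libraries were highest, and the Ins1-RFP positive libraries lay on both sides of the Ngn3-high pair. The fall into Ngn3-high cells was 2.08 on the log2 scale (SE 0.564, edgeR adjusted p = 0.01253), and it was not called without Ngn3-high library 1 (edgeR adjusted p = 0.0675) or library 2 (edgeR adjusted p = 0.0911). The 6 mural markers summed to 25.1 and 20.9 CPM in the low gate, 10.6 and 9.03 CPM in the high gate, and 12.4 and 32.1 CPM in Ins1-RFP positive libraries, the same order as Heyl in the last pair; their part in the result was not tested. In the second step the log2 difference was 0.92 (SE 0.583, edgeR adjusted p = 0.222), with 1.62 and a call without Ins1-RFP positive library 1 (edgeR adjusted p = 0.00292) and -0.44 without library 2. Between Ngn3-low and Ins1-RFP positive cells it was -1.16 (SE 0.533, edgeR adjusted p = 0.0846), which became a call at -2.52 without Ins1-RFP positive library 2 (edgeR adjusted p = 0.00017).

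Hes5 (chr4:154960626-154962372) and Hey2 (chr10:30832359-30842783), which are main Notch effectors in other tissues such as neural tube and artery, were near the detection limit. Hes5 had 0 and 0 reads in the Ngn3-low libraries, 9 and 2 in Ngn3-high and 0 and 1 in Ins1-RFP positive. Hey2 had 2 and 4, 7 and 6, and 4 and 5 reads in the same order. The floor of 3 counts corresponds to 0.169 to 0.251 CPM per library, and neither gene passed the filter, so no fold change is given for them.

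Per length, the order of the members changed between groups. On the RPKM scale (CPM per kilobase of gene length) Ngn3-low cells had Hes1 at 40.5 ± 15.1, Hes6 at 34.8 ± 1.73 and Rbpj at 34.2 ± 2.20 (SD, n = 2), which did not differ beyond their spread. Hey1 at 4.89 ± 0.307 and Heyl at 1.90 ± 0.285 followed. In Ngn3-high cells Hes6 led at 125 ± 6.30, ahead of Rbpj at 32.7 ± 0.907. Hey1 at 4.57 ± 0.772 and Hes1 at 3.64 ± 1.36 overlapped there. In Ins1-RFP positive cells Hes6 was at 39.6 ± 1.49, Rbpj at 9.23 ± 0.29985 and Hes1 at 3.58 ± 1.91, while Heyl at 0.770 ± 0.678 and Hey1 at 0.632 ± 0.0329 overlapped each other.

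The rest of the pathway was read from 8 lists with 57 genes, 52 of them tested. In the first step there were 18 rises, 15 falls and 19 without a call, with a median log2 change of 0.11 against -0.01 over all genes, of which 27.7% rose and 30.2% fell. All 4 Notch receptors fell. Notch2 went from 431 ± 8.47 to 31.8 ± 0.826 CPM (SD, n = 2), and Notch1 from 389 ± 4.56 to 92.8 ± 16.1 CPM. Notch4 went from 10.7 ± 1.80 to 0.934 ± 0.0205 CPM, and stood at 3.12 CPM in single WT Ngn3-low cells. Macrophage and endothelial markers were lower in the same direction in bulk, and their part in the pathway results was not tested. Of 6 tested ligands 3 rose and 1 fell: Dll3, a ligand-like protein that acts within the cell, rose from 1.50 ± 0.269 to 52.5 ± 5.91 CPM, Dll4 from 26.1 ± 2.00 to 115 ± 30.97 CPM and Jag2 from 11.3 ± 0.312 to 38.5 ± 11.2 CPM, while Jag1 fell from 52.3 ± 3.65 to 8.42 ± 0.160 CPM. Of 17 genes of Fringe enzymes, processing and endocytosis, 6 rose and 2 fell. Mfng, which adds sugars to Notch, rose by 2.89 on the log2 scale (SE 0.163, edgeR adjusted p = 2.125e-06).

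Genes of the proteins that Rbpj and the Hes factors recruit were called in both directions in the first step. Of all genes 27.7% rose and 30.2% fell there, and these short lists were not tested against those shares. Of 6 Rbpj coactivators 2 rose and 2 fell: Maml2 went from 26.004 ± 0.703 to 1.93 ± 0.369 CPM and Maml3 from 41.9 ± 0.852 to 94.9 ± 12.4 CPM (SD, n = 2). Of 9 Rbpj corepressors 5 rose and 1 fell, among them Spen, which rose by 0.75 on the log2 scale (SE 0.114, edgeR adjusted p = 0.000617), and L3mbtl3, which fell by 0.97 (SE 0.146, edgeR adjusted p = 0.000591). Of 6 Groucho corepressors, which Hes proteins recruit, 2 rose and 1 fell, with Tle4 at 29.1 ± 1.79 and 3.66 ± 0.145 CPM and Tle3 at 232 ± 1.89 and 357 ± 6.60 CPM. Rbpjl, the acinar paralog of Rbpj, and its partner Ptf1a both fell, Rbpjl from 21.1 ± 3.03 to 1.72 ± 0.421 CPM. Of 6 other Hes-related repressors 2 were tested and both fell. All 6 other Notch-responsive genes fell, such as Nrarp, a feedback inhibitor of Notch, from 32.7 ± 0.571 to 4.07 ± 0.788 CPM.

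From Ngn3-high to Ins1-RFP positive cells, there were 12 rises and 24 falls among the 52 pathway genes and 16 without a call, with a median of -0.20 against 0.01 over all genes, of which 26.1% rose and 24.9% fell. The falls included 10 of 17 genes of processing and endocytosis and 6 of 9 Rbpj corepressors. Dll3 fell to 0.661 ± 0.225 CPM and Dll1 from 100.3 ± 25.6 to 19.1 ± 2.61 CPM, while the Notch inhibitor Dlk1 rose from 512 ± 26.6 to 1798 ± 188 CPM (SD, n = 2). Of the 4 receptors 1 rose and 1 fell. Notch3 fell from 45.3 ± 13.4 to 16.7 ± 3.13 CPM, and Notch4, on fewer reads, rose from 0.934 ± 0.0205 to 3.09 ± 0.374 CPM. Rbpjl and Ptf1a were called higher, but Rbpjl averaged 57.5 ± 70.4 CPM because library 2, the one rich in acinar transcripts, was high. Between Ngn3-low and Ins1-RFP positive cells, there were 14 rises, 21 falls and 17 without a call, with a median of -0.18 against -0.08 over all genes, of which 30.4% rose and 35.5% fell.

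In single cells the same members set the gates apart, here with 1 sample per group and no test. Reads were summed over the cells of a group, ratios were taken with 1 CPM added to each side, and a ratio counts as a call from 2-fold on, with 5 CPM or more in the higher group. Intervals are exact 95% Poisson intervals of summed reads and cover counting error only. Of the 5 members at 5 CPM or more, 1 was at least 2-fold higher in WT Ngn3-high than in WT Ngn3-low cells, as were 14% of the 11792 genes at that level, and 2 were at least 2-fold lower, as were 19%. Among deleted cells the numbers were again 1 and 2 of 5, against 15.3% and 18.7% of 11815 genes.

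**Figure D2:**
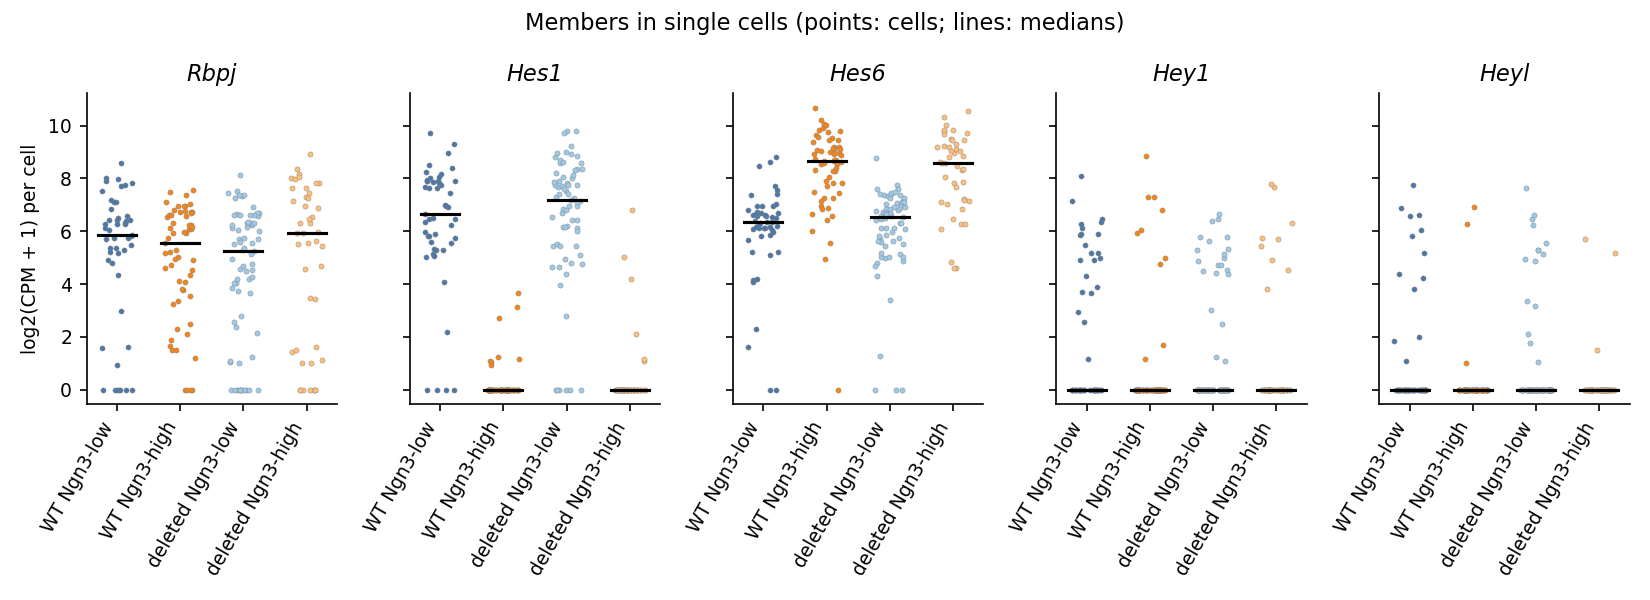
log2(CPM + 1) of 5 members in each of 221 cells; points are cells and lines are medians of the 4 groups. Hes1 is at 0 in most Ngn3-high cells of both genotypes, where Hes6 has medians of 404 and 388 CPM.

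Hes1 was close to an on-off marker of the gates. WT Ngn3-low cells held 171 CPM (166.7 to 176) and WT Ngn3-high cells 0.574 CPM (0.372 to 0.848), a log2 ratio of -6.77. Single cells ranged from 0 to 838 CPM around a median of 99.2 CPM in the low gate of WT, and from 0 to 11.8 CPM around 0 in WT Ngn3-high. At 10 CPM or more it was read in 44 of 49 WT Ngn3-low cells (89.8%, exact Clopper-Pearson 95% interval 77.8 to 96.6%) and in 1 of 59 WT Ngn3-high cells (1.69%, 0.0429 to 9.09%). Deleted cells showed the same split, with 212 CPM and 62 of 69 cells among Ngn3-low and 2.91 CPM and 3 of 44 cells among Ngn3-high, a log2 ratio of -5.77. In the deleted Ngn3-high group 1 cell gave 51.1% of the Hes1 reads. In 2 alternatives chosen after seeing the data, the split remained in size. With the highest cell of each group left out the ratios were -6.80 and -6.37. Cells in which a list of another cell type's markers summed to 50 CPM or more were also left out, after Egfl7, Fn1 and Erbb3, read in many cells here, had been taken off those lists. That kept 27 WT Ngn3-low, 45 WT Ngn3-high, 45 deleted Ngn3-low and 36 deleted Ngn3-high cells, with ratios of -6.85 and -6.44. With the full lists too few cells remained for a comparison.

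Hes6 was read in nearly every cell and differed by level. It stood at 105 CPM (101.7 to 109) in WT Ngn3-low, 464 CPM (458 to 471) in WT Ngn3-high, 97.5 CPM (94.8 to 100.2) in deleted Ngn3-low and 450 CPM (443 to 458) in deleted Ngn3-high cells. The log2 ratio of high to low cells was 2.13 in WT and 2.20 in deleted cells. Its share at 10 CPM or more was 45 of 49, 58 of 59, 64 of 69 and 44 of 44 cells. Medians were 79.8, 404, 92.4 and 388 CPM. The gates overlapped in single cells, since WT Ngn3-low cells reached 449 CPM.

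Rbpj was read in 38 of 49, 45 of 59, 50 of 69 and 30 of 44 cells at 10 CPM or more, in the order WT Ngn3-low, WT Ngn3-high, deleted Ngn3-low and deleted Ngn3-high. Its CPM was 85.5 (82.4 to 88.8), 56.3 (54.1 to 58.6), 50.7 (48.8 to 52.7) and 96.8 (93.5 to 100.3). The log2 ratio of high to low cells was -0.59 in WT cells and 0.92 in deleted cells, both under 2-fold. Within WT cells the 2 shared title numbers gave 0.12 and -0.90, and within deleted cells 1.24 and 0.94.

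Hey1 and Heyl were read in few cells. Hey1 stood at 21.9, 17.7, 10.7 and 14.4 CPM in the same order of groups and at 10 CPM or more in 19 of 49, 8 of 59, 17 of 69 and 9 of 44 cells. In WT Ngn3-high cells 1 cell gave 48.0% of the Hey1 reads, and the log2 ratio of high to low WT cells was -0.29 with it and -0.90 with the highest cell of each group left out, while without title number 4 it was 0.08. Heyl stood at 13.02, 3.58, 8.54 and 2.14 CPM, in 10 of 49, 2 of 59, 10 of 69 and 2 of 44 cells. Its log2 ratio of high to low cells was -1.61 in WT and -1.60 in deleted cells, and without title number 4 the WT ratio was -0.78. Without title number 5 the deleted ratio was -0.40. Heyl was at 10 CPM or more in 24 of the 221 cells, and in 0 of the 3 cells whose mural markers summed to 50 CPM or more. Hes5 and Hey2 had 0 reads in all 221 cells, and a floor of 3 counts over all of them corresponds to 0.0187 CPM.

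Per length the WT Ngn3-low cells ranked Hes1 at 117 RPKM, Hes6 at 66.9, Rbpj at 15.4, Hey1 at 9.93 and Heyl at 2.87. WT Ngn3-high cells ranked Hes6 at 295 RPKM, Rbpj at 10.2, Hey1 at 8.02, Heyl at 0.790 and Hes1 at 0.391. Bulk and single-cell tables come from different library methods, so their levels are set side by side only.

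Single cells show which members were read together. Hes1 and Neurod1, a factor that acts after Neurog3, were both at 10 CPM or more in 2 of 221 cells, while the other cells with Hes1 had it alone, 87 had Neurod1 alone and 24 had neither. Both cells of overlap were deleted Ngn3-high cells. Neurod1 reached 10 CPM in 0 of 49 WT and 0 of 69 deleted Ngn3-low cells. Hes1 reached it in 1 of 59 WT and 3 of 44 deleted Ngn3-high cells, so few cells within either gate could show both. Hes1 and Neurog3 were found together in 56 cells, 24 of 49 in WT Ngn3-low and 28 of 69 in deleted Ngn3-low. In WT Ngn3-low cells the median Hes1 level was 80.6 CPM in the 27 cells with Neurog3 and 185 CPM in the 22 without, and in deleted Ngn3-low cells it was 118 CPM in 34 and 155 CPM in 35. Sox9, a progenitor factor, was at 10 CPM or more in all 110 cells with Hes1. It was also at that level in 190 of all 221 cells, among them all 49 WT and all 69 deleted Ngn3-low cells.

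Hes6 followed Neurog3 within the Ngn3-high gate. The median Hes6 level was 474 CPM in the 49 WT Ngn3-high cells with Neurog3 and 134 CPM in the 10 without, and 454 CPM in 40 and 47.7 CPM in 4 among deleted Ngn3-high cells. Across cells, Pearson's r of log2(CPM + 1) between Hes6 and Neurog3 was 0.56 in 59 WT Ngn3-high and 0.73 in 44 deleted Ngn3-high cells, and -0.05 and 0.24 in the 49 and 69 Ngn3-low cells. With Neurod1 it was -0.10 and -0.17 in the Ngn3-high groups. Hes6 and Hes1 had an r of -0.45 over all WT cells, but 0.17 and -0.07 within WT Ngn3-low and WT Ngn3-high cells. All r values describe cells of 1 gate or of both gates pooled. These cells differed in depth, from 380478 to 1949839 reads, and the r values carry no test.

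**Figure D3:**
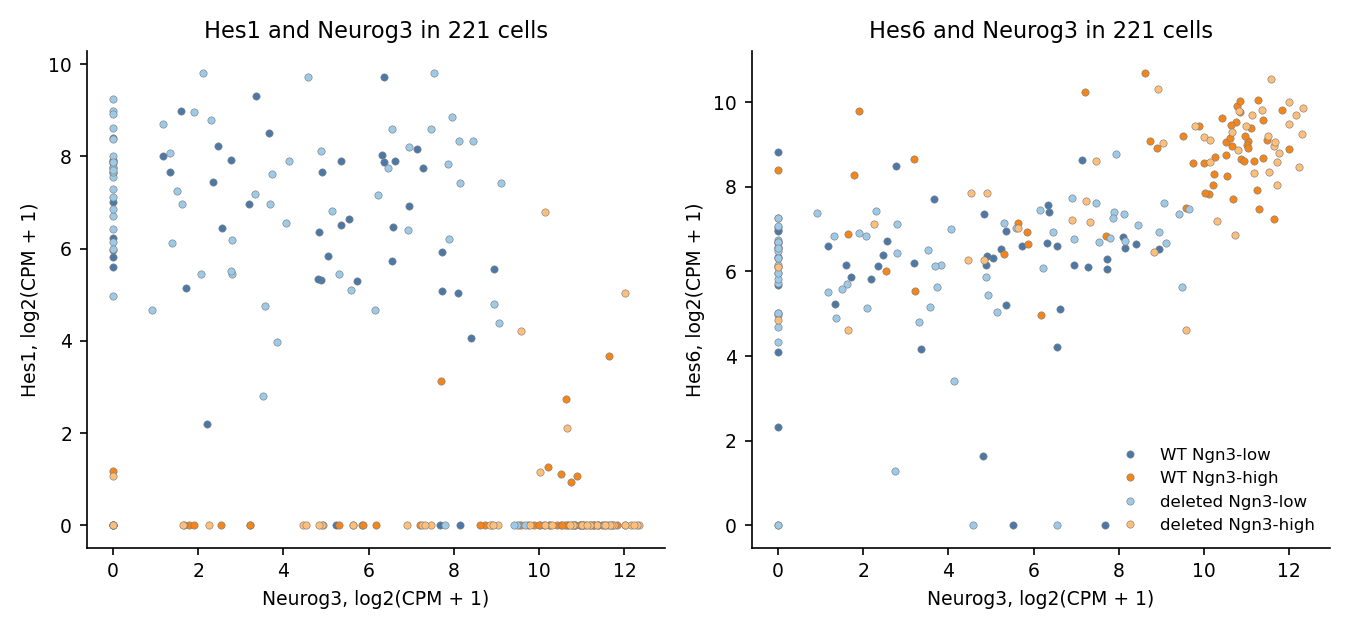
Hes1 (left) and Hes6 (right) against Neurog3, all as log2(CPM + 1), with 1 point per cell and colours for the 4 groups. Among Ngn3-high cells Hes6 is higher where Neurog3 is higher, with r of 0.56 in WT and 0.73 in deleted cells, while Hes1 reaches 10 CPM in 1 of 59 WT and 3 of 44 deleted Ngn3-high cells.

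The genes most like each member were taken from 11462 genes over all WT cells. For Hes1 the highest r were 0.85 with Adamts1, 0.84 with Cdc42ep1, 0.83 with Onecut1, 0.81 with Notch2 and 0.81 with Sdc4. The lowest were -0.82 with Vwa5b2, -0.81 with Syt13 and -0.81 with Gfra3. Within groups the first 5 gave lower values, -0.14 to 0.34 in WT Ngn3-low and 0.19 to 0.55 in WT Ngn3-high cells. The latter rest on 25 Hes1 reads in 8 of 59 cells, with 40.0% of the reads from 1 cell. For Hes6 the highest were Cbfa2t3 at 0.70, Cbfa2t2 at 0.66, Btbd17 at 0.66, Dopey2 at 0.66 and Pax4 at 0.66, and the lowest Rest at -0.57, Slc2a2 at -0.56 and Notch2 at -0.56. Those first 5 gave 0.52 to 0.79 within WT Ngn3-high cells, which were among the cells that ranked them, and 0.08 to 0.29 within WT Ngn3-low cells. In deleted cells, which were not, they gave 0.21 to 0.68 among Ngn3-high and 0.11 to 0.26 among Ngn3-low cells. Rbpj had no gene above an r of 0.39, which was Nhsl1, with Kdm2a at 0.35, Tmem110 at 0.35, Zfp263 at 0.34 and Prim2 at 0.34, and Cops7b at -0.33, Maged1 at -0.32 and Atxn1 at -0.31 at the other end. In deleted cells Nhsl1 and Rbpj gave -0.03 and 0.08.

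Deletion of Jmjd3 was compared within each gate and within title numbers that both genotypes had. Among Ngn3-low cells 5 members reached 5 CPM, and 0 of them were at least 2-fold higher and 0 lower in deleted cells, where 1.70% and 2.65% of the genes at 5 CPM were. Among Ngn3-high cells Rbpj, Hes6 and Hey1 reached it, with 0 higher and 0 lower, against 2.96% and 2.76%. There is no test behind these counts. Hey1 in Ngn3-low cells lay next to that limit, at a log2 ratio of -0.97.

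Rbpj differed in opposite directions in the gates. Among Ngn3-low cells it was lower in deleted cells, at 50.7 against 85.5 CPM (log2 ratio -0.74), and among Ngn3-high cells it was higher, at 96.8 against 56.3 CPM (log2 ratio 0.77). By title number, Ngn3-low cells gave 39.3, 54.6 and 57.1 CPM in deleted and 59.2, 90.0 and 109 CPM in WT cells for numbers 1, 2 and 5. Title numbers 3 and 4, with WT cells alone, gave 110.1 and 85.4 CPM. Ngn3-high cells gave 94.0, 110.2 and 86.8 CPM in deleted and 64.5, 58.0 and 39.2 CPM in WT cells for numbers 1, 5 and 6. The genotypes did not overlap across title numbers in either gate, though number 5 held only 5 WT Ngn3-low cells and number 6 only 6 deleted Ngn3-high cells. Of the genes at 5 CPM or more, 10.4% were lower in every shared title number among Ngn3-low cells and 16.9% higher, and 11.7% were higher and 11.4% lower among Ngn3-high cells. Lower in all among Ngn3-low cells and higher in all among Ngn3-high cells applied to 1.28% of 10174 genes, 130 in number. Genes with the reverse order were not counted. The share of Ngn3-high cells with Rbpj at 10 CPM or more went the other way, 30 of 44 deleted against 45 of 59 WT cells, and the median of those cells was 121 CPM against 69.0 CPM. Without the highest cell of each group the ratios were -0.75 and 0.74. Other genes differed between the same groups. Cell division genes summed to 1697 CPM in WT and 1099 CPM in deleted Ngn3-low cells, and to 65.6 and 25.4 CPM in Ngn3-high cells. Neurog3 stood at 1256 CPM in WT and 1735 CPM in deleted Ngn3-high cells and Neurod1 at 774 and 542 CPM, and the r of Rbpj with Neurog3 was 0.32 and 0.42 there. Their part in the Rbpj result was not tested.

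**Figure D4:**
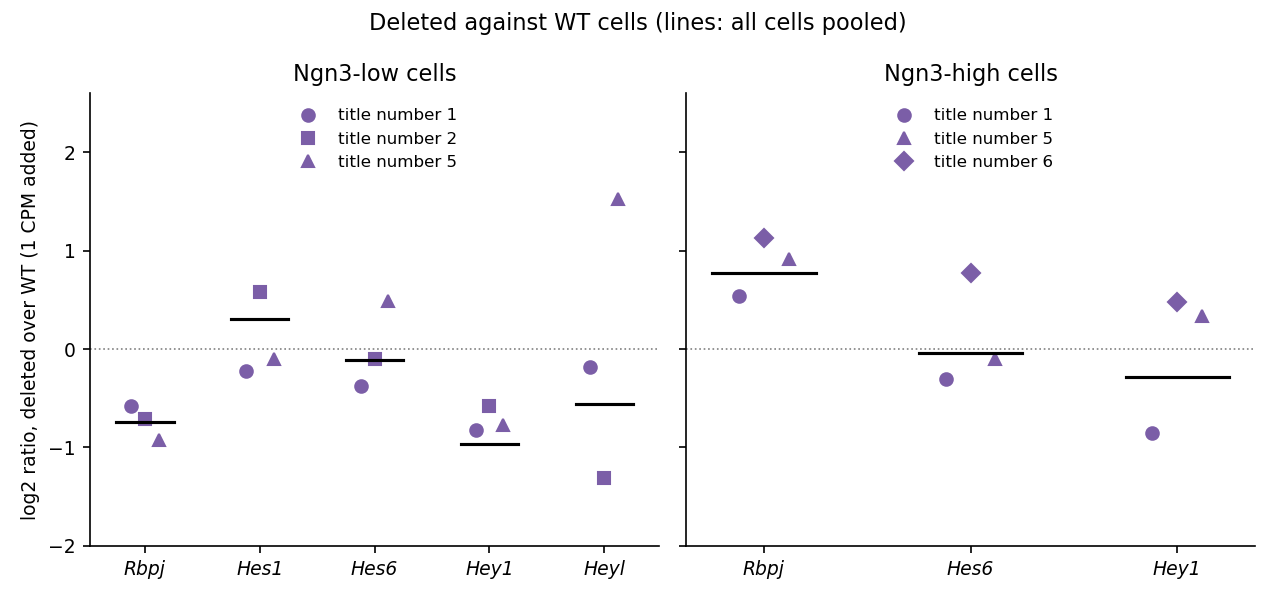
log2 ratio of deleted over WT cells (1 CPM added) for members at 5 CPM or more, in Ngn3-low cells (left) and Ngn3-high cells (right). Symbols are title numbers that both genotypes had and lines pool all cells. Rbpj is below 0 in 3 of 3 title numbers on the left and above 0 in 3 of 3 on the right. Some title numbers held few cells, such as 5 WT Ngn3-low cells in number 5 and 6 deleted Ngn3-high cells in number 6.

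Hey1 was lower in deleted Ngn3-low cells in 3 of 3 title numbers, with log2 ratios of -0.82, -0.58 and -0.77. It was at 10 CPM or more in 17 of 69 deleted cells (24.6%) and 19 of 49 WT cells (38.8%), with no test of the difference. Without title number 4, which WT cells alone had, the pooled ratio was -0.59, and in the 27 WT and 45 deleted cells kept by the shortened marker lists it was -1.62. In Ngn3-high cells Hey1 was higher in 2 and lower in 1 of 3 title numbers.

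Hes1, Hes6 and Heyl differed in mixed directions. Hes1 among Ngn3-low cells gave a pooled log2 ratio of 0.31 but -0.22, 0.58 and -0.10 by title number. Hes6 gave -0.11 with -0.38, -0.10 and 0.49 among Ngn3-low cells, and -0.04 with -0.30, -0.11 and 0.77 among Ngn3-high cells. Heyl gave -0.56 with -0.18, -1.31 and 1.52 among Ngn3-low cells. Hes1 and Heyl stayed below 5 CPM in both Ngn3-high groups and were not compared there.

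Of the 57 pathway genes, 45 reached 5 CPM in the Ngn3-low comparison, where 2 were at least 2-fold higher and 0 lower in deleted cells, against 1.70% and 2.65% of the genes at that level, with a median of -0.08 against 0.02. These 2, named after their values were seen, were Dll4 at 24.5 CPM in deleted and 9.74 CPM in WT cells and Numbl, a relative of the Notch inhibitor Numb, at 11.6 and 4.14 CPM. Of 45 in the Ngn3-high comparison 0 were higher and 0 lower, against 2.96% and 2.76%, with a median of -0.03 against 0.03. Notch2 stood at 262 CPM in WT and 277 CPM in deleted Ngn3-low cells, and Dll3 at 109.0 and 109.8 CPM in the Ngn3-high groups. Between the gates of WT cells 10 of 50 pathway genes were at least 2-fold higher and 10 lower in Ngn3-high cells, where 14% and 19% of the genes at 5 CPM were. Between the gates of deleted cells 8 and 11 of 50 were, against 15.3% and 18.7%.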

How the data were processed

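Reads in genes were deposited as counts for 6 bulk and 221 single-cell libraries. Build mm10 and the tools HTSeq 0.6.0, TopHat2 2.1.0 with Bowtie2, and DESeq 1.20.0 appear in the submitters' processing notes; which annotation and strand setting were used is not given in the sources used here. Per the labels' protocols, bulk libraries came from poly(A) RNA with a directional kit, and single cells from Smart-seq2 with ERCC spike-ins and no molecular identifiers, so intervals and floors cover counting error only. The 92 ERCC rows were left out of totals.

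Bulk counts were tested with edgeR 4.0.16 (quasi-likelihood, TMM scaling, filterByExpr, all 6 libraries, Benjamini-Hochberg over 15684 genes, threshold 0.05). Printed CPM are not TMM-scaled. RPKM divide CPM by the deposited gene lengths. Single-cell reads were summed per group, with no test. The scripts were tested on simulated data. The members and gene lists were chosen with earlier results of these data known. Genes named from a list were taken from up to 4 with the largest called change in a bulk comparison at 10 CPM or more in the higher group, and genes most like a member are the 5 highest and 3 lowest by r. Notch4 in the second step, below 10 CPM, is named outside this rule. Alternatives were DESeq2 1.42.0, other scalings, filters, pseudocounts, libraries or title numbers left out, a replicate block, and 2 chosen after seeing the data. ChIP samples were not used.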

Additional observations from a re-analysis of the deposited data

Results flagged for a closer look

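Rbpj is singled out because every title number that both genotypes had moved one way among Ngn3-low cells and the opposite way among Ngn3-high cells. The pooled log2 ratio of deleted over WT cells was -0.74 among Ngn3-low cells, below 0 in 3 of 3 title numbers. Among Ngn3-high cells it was 0.77, above 0 in 3 of 3. Both pooled ratios were under 2-fold. Lower in all among Ngn3-low cells and higher in all among Ngn3-high cells applied to 1.28% of 10174 genes. The reverse order was not counted, so the share of genes with opposite directions either way round is not known. The difference between the gates was not tested, because the labels name no animal and each group counts as 1 sample.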

How the results depend on the processing

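In bulk, Hes1, Hes6, Rbpj and Hey1 kept the direction of every call named above under the alternatives run, and lost calls are those of Hes6 and Heyl given beside their values. Differences that were not called changed sign: Rbpj from Ngn3-low to Ngn3-high was -0.067 with total counts, -1e-04 with only the 2 groups compared, and -0.067 to 0.11 with 1 library out. Hey1 in that step was 6e-04 with DESeq2 and -0.23 to 0.16 with 1 library out. From Ngn3-high to Ins1-RFP positive cells Hes1 was -0.067 with total counts and -0.65 to 0.50 with 1 library out, and Heyl -0.44 to 1.62 with 1 library out. The cause was not tested. Total counts moved the median of all genes from -0.08 to -0.24 between Ngn3-low and Ins1-RFP positive cells, and ERCC scaling moved it from -0.05 to -0.39 between the WT gates.

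With no filter, 2 members were called higher in the first step, Hes5 being added, where 4557 of 24384 genes were. In the second step 1 member was, Heyl, where 4560 of 24384 genes were. With total counts 0 members were called higher between Ngn3-low and Ins1-RFP positive cells, where 4069 of 15684 genes were. Leaving out 1 library gave 1 to 2 members lower in the first step, 0 to 1 higher in the second, and 0 to 1 higher between Ngn3-low and Ins1-RFP positive cells. Differences between libraries 1 and 2 of a group were weakly correlated between groups, at 0.0661, 0.0918 and 0.0293. Such values cannot show whether libraries of the same number were sorted together. The replicate block gave Hes1 -3.37, Hes6 1.93 and Heyl -2.08 in the first step and changed no count of members called.

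In single cells, leaving out 1 title number gave 1 to 4 members lower between the WT gates, and between the deleted gates 1 to 2 higher and 1 to 2 lower. With title numbers weighted equally 2 were higher between the deleted gates, and with a pseudocount of 5 CPM 1 was lower. In deleted against WT Ngn3-low cells 1 member was lower with a pseudocount of 0.1 CPM, with the mean of cell CPM and with ERCC scaling, 2 in the cells kept by marker lists without Egfl7, Fn1 and Erbb3 (chosen after seeing the data), and 0 to 2 with 1 title number out. Among Ngn3-high cells 0 to 1 were higher with 1 title number out. Shares of all genes are not given for these single-cell settings or for 1 library left out, so those counts describe the members alone. The planned restriction to cells free of all other markers was not run, since it left 3, 20, 2 and 8 cells. Hes5 and Hey2 had too few reads to pass the bulk filter, and the Hes5 call without a filter rests on 9 and 2 reads in Ngn3-high against 0 and 0 in Ngn3-low libraries.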
